A study of Mus musculus with 22 samples.

Results

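Gastruloids are aggregates of mouse embryonic stem cells that elongate and form tissues resembling parts of the early embryo. The data described here are the 8 wild-type gastruloid libraries of a series of 22, and the question is how the difference between 2 treatments changed between 96 h and 120 h. The members were chosen by their labels: every column of the deposited gastruloid count table that sets Activin A beside Chiron. All 8 come from cells of genotype wt, described as mixed cells, and form 4 groups of 2 libraries: Chiron gastruloids at 96 h, Chiron gastruloids at 120 h, Activin A gastruloids at 96 h and Activin A gastruloids at 120 h. The stem cells behind them were kept in serum medium with LIF, the GSK-3 inhibitor CHIR99021 and a MEK inhibitor. The labels give no dose or timing for the gastruloid treatments, no count of pooled aggregates, and nothing on whether the replicates came from separate cultures, so the p-values measure only the spread between these libraries.

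Chiron is the usual short name of CHIR99021. By blocking GSK-3 it stabilises beta-catenin and so acts like a Wnt signal, which in gastruloids gives a caudal, trunk-like body with neuromesodermal progenitors, presomitic mesoderm and somites. Activin A binds the receptors that Nodal uses in the embryo, and high Nodal signalling at the primitive streak gives definitive endoderm and axial mesoderm. Hox genes are switched on in the order of their position in 4 clusters, from group 1 to group 13, as the trunk and tail are laid down, so the set of active Hox genes is often read as a clock of axial age.

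Libraries held 20547464 to 28819301 counts at 96 h and 9108085 to 11930416 at 120 h, so time and depth go together and cannot be told apart by design. With all libraries thinned to the smallest, 5845 interactions were called in place of the 6861 given below, and 5591 were the same genes. The 100 most counted genes took 16.9% to 18.2% of counts and mitochondrial transcripts 0.597% to 0.968%. Levels are CPM, each count scaled to the depth of its library. Where no library of a group had more than 3 counts of a gene, the group was taken to be at the floor, which lies between 0.11 and 0.314 CPM. Folds against the floor are lower bounds that cover counting error only. The replicates of every group differed by more than counting noise, their chi-square over its degrees of freedom being 10.3 for Chiron at 96 h, 3.63 for Chiron at 120 h, 1.88 for Activin A at 96 h and 1.37 for Activin A at 120 h. The widest pair, Chiron at 96 h, differed in somite genes, whose 21 tested members summed to 908.6 CPM in replicate 1 and 617.7 in replicate 2. These are bulk samples, in which fewer cells of a type and less RNA per cell cannot be told apart.

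The treatment difference changed with time for a large share of the transcriptome. Of 17305 tested genes, 6861 had an interaction at an adjusted p under 0.05 (39.6%), where the interaction is the log2 difference between Activin A and Chiron at 120 h minus that at 96 h. It was positive for 3752 genes (21.7%) and negative for 3109 (18%), and 2416 called genes changed by at least 2-fold (14%). Counts of calls in the gene lists below are to be read beside these shares of all tested genes. The treatments were further apart at 96 h than at 120 h. At 96 h, 10655 genes were called (61.6%), with a median absolute log2 difference of 0.377. At 120 h, 7249 genes were called (41.9%), with a median of 0.293. The counts of calls depend on depth, and with all libraries thinned to the smallest they were 8399 at 96 h and 6809 at 120 h, of 15643 tested genes. Activin A exceeded Chiron for 31.3% of genes at 96 h and for 20.3% at 120 h, and Chiron exceeded Activin A for 30.2% and 21.6%. Time moved 12248 genes in Activin A gastruloids (70.8%) and 10669 in Chiron gastruloids (61.7%).

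The called genes were sorted by what the gap between the treatments did. It closed for 2721 genes (15.7%), which differed at 96 h but not detectably at 120 h. It narrowed for 822 (4.75%) and crossed over, with the higher treatment becoming the lower, for 1168 (6.75%), of which 538 had been higher with Activin A at 96 h (3.11%) and 630 lower (3.64%). It opened for 1395 genes that did not differ detectably at 96 h (8.06%), and widened for 527 (3.05%). Another 690 genes (3.99%) were kept apart, at least 2-fold in the same direction at both times with no interaction called. Of these, 551 were higher with Activin A (3.18%) and 139 lower (0.803%). A missing interaction call does not show that a gap stayed the same size, and only 154 of the 690 had a 95% interval of the interaction that lay wholly within 2-fold. Where the gap closed or narrowed, the Activin A arm moved further than the Chiron arm for 2286 of 3543 genes (64.5%), against 59.3% of all tested genes.

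**Figure D1:**
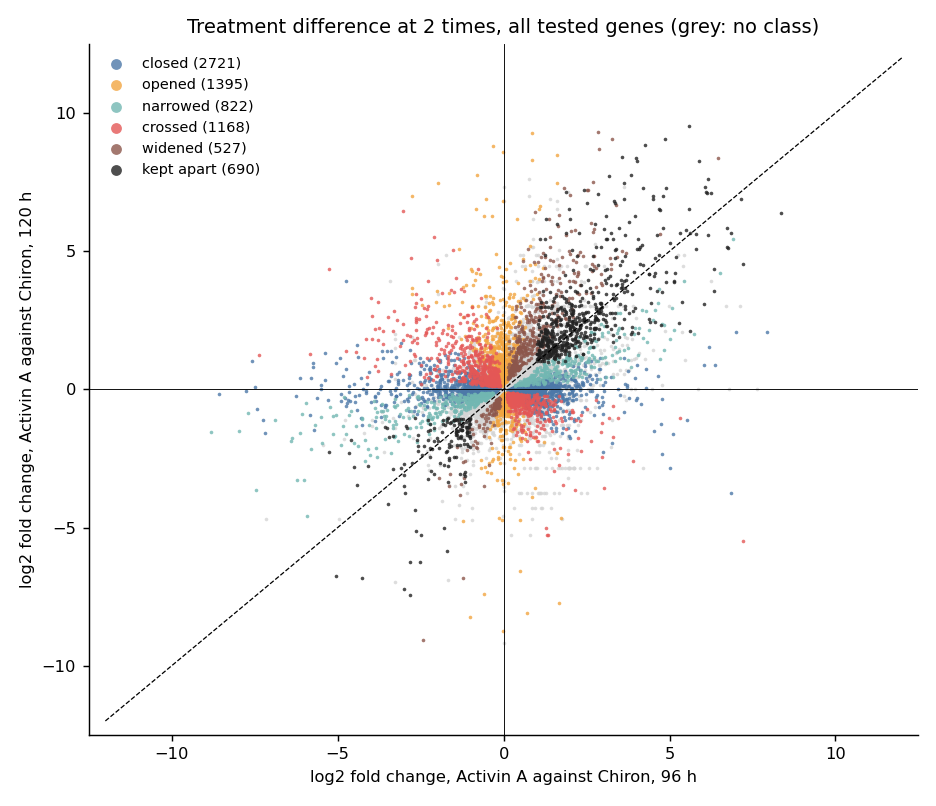
Each point is 1 of 17305 tested genes, placed by its log2 fold change of Activin A against Chiron at 96 h (horizontal) and 120 h (vertical), and coloured by what the gap did; the dashed line marks an equal gap at both times. Closed genes (2721) lie along the horizontal line at 0, opened genes (1395) along the vertical one, crossed genes (1168) in the upper left and lower right, and kept-apart genes (690) near the dashed line, most of them at the upper right.

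"Delayed" is used below with a fixed meaning. A late rise is a gene at least 2-fold lower with Activin A at 96 h that rose in Activin A gastruloids by 120 h with a positive interaction, and 637 genes did so (3.68%). At 120 h, 386 of them (60.6%) stood within 2-fold of the level that Chiron gastruloids had at 96 h, 108 were still below it and 143 above it. A late fall is the mirror image and held for 583 genes (3.37%), 385 of them (66%) within 2-fold of the earlier Chiron level. A gap can also close because the Chiron arm moved. This includes 150 genes that fell in Chiron and were not called as risen in Activin A (0.867%), and 128 that rose in Chiron and were not called as fallen in Activin A (0.74%). The Chiron arm moved among delayed genes too, and fell for 235 of the 637 late rises and rose for 118 of the 583 late falls.

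Most Hox genes were delayed. Of 39 Hox genes, 34 passed the filter on low counts, and 26 of those had a positive interaction, 2 a negative one and 6 none that was called. All 28 that differed at 96 h were lower with Activin A, and 25 were lower at 120 h while 3 were higher. The gap narrowed for 21 and the late rise held for 21. The median log2 interaction was 2.66, or 2.33 with groups at the floor set to 3 counts per library, against 0.0149 over all tested genes. Groups 1 to 4 had a median interaction of 1.8 with 11 of 12 genes positive, and groups 5 to 9 a median of 3.16 with 13 of 15 positive, all 13 of them late rises. Among the 11, Hoxa4 (1.02) reversed in both fits on the authors' FPKM. The calls for Hoxa2 (0.333) and Hoxb2 (0.253) were lost under 6 and 5 alternatives, DESeq2 among them for both. Of 12 genes in groups 10 to 13 only 7 were tested, 2 of them called, and their median of 1.64 fell to 0.211 with floors applied, since 5 of the 7 had a group at the floor.

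Hoxb9 measured 268 and 261 CPM in Chiron gastruloids at 96 h and 235 and 230 at 120 h, but 3.92 and 3.58 with Activin A at 96 h and 79.8 and 75 at 120 h. The Activin A level at 96 h was 70.5-fold below Chiron, and at 120 h it was 3.01-fold below, with no overlap between groups at either time. The interaction was 4.55 on the log2 scale (SE 0.102, adjusted p = 6.24e-20). Hoxc8 showed a steeper version of the same course, at 92.3 and 93.8 CPM in Chiron and 0.45 and 0.433 with Activin A at 96 h, then 67.6 and 72.9 against 37.7 and 38.9 at 120 h. Its interaction of 6.83 (SE 0.17, adjusted p = 3.9e-19) was the largest among the Hox genes with a called interaction. Hoxd3 closed the gap altogether, from 95.9 and 69.9 CPM against 9.45 and 8.03 at 96 h to 124 and 140 against 137 and 133 at 120 h.

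Not every Hox gene took part in the same way. Hoxb1 stood at 315 and 338 CPM against 311 and 294 at 96 h, a difference that was not called, and at 90.8 and 103 against 76.7 and 74 at 120 h. Its interaction of -0.24 (SE 0.0856, adjusted p = 0.0269) and that of Hoxa5, -0.48 (SE 0.13, adjusted p = 0.00544), were the negative ones. The call for Hoxb1 was lost under 7 alternatives, among them GC and length offsets (adjusted p = 0.0791) and the fits without Chiron 120 h replicate 2 (0.213), Activin A 96 h replicate 1 (0.0865), Activin A 120 h replicate 1 (0.0685) or Activin A 120 h replicate 2 (0.146). Hoxc9, Hoxa9 and Hoxc10 were rising in both arms. Hoxa9 went from 20.1 and 19.9 to 118 and 142 CPM in Chiron and from 1.67 and 1.14 to 63.7 and 65.9 with Activin A. Hoxc10 was at 0 counts in both Activin A libraries at 96 h and at 8.4 and 8.26 CPM at 120 h, against 0.31 and 0.477 and then 37.3 and 36.4 CPM in Chiron. Its interaction of 3.67 (adjusted p = 0.0198) reversed in both fits on the authors' FPKM. The call was also lost by DESeq2 (adjusted p = 0.0598), after thinning to the smallest library (0.321), and without Chiron 96 h replicate 2 (0.0537), Activin A 96 h replicate 1 (0.0911) or Activin A 96 h replicate 2 (0.119). The call for Hoxc11 was lost after thinning (0.182) and without Chiron 96 h replicate 1 (0.149), Activin A 96 h replicate 1 (0.0658) or Activin A 96 h replicate 2 (0.0785). Antisense and overlapping transcripts touch some of these genes: 52.9% of the exon bases of Hoxb3 and 20.4% of those of Hoxa7 overlap another annotated gene on the opposite strand, and the sources used here do not say whether the counting used strand. The same holds for 12.9% of the exon bases of Hes7, 20.6% of those of Tbx18 and 23.1% of those of Mest. It holds too for 15.7% of those of Shh and 29.4% of those of Notum, so the values of these genes are uncertain to that extent. Genes that did not pass the filter overlap 79.4% of Nrarp, 31.8% of Hes5 and 20.5% of Dll1 on the opposite strand. On the same strand, such genes overlap 62.8% of Igf2 and 53.1% of Hoxd3. What these overlaps did to the counts was not tested.

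**Figure D2:**
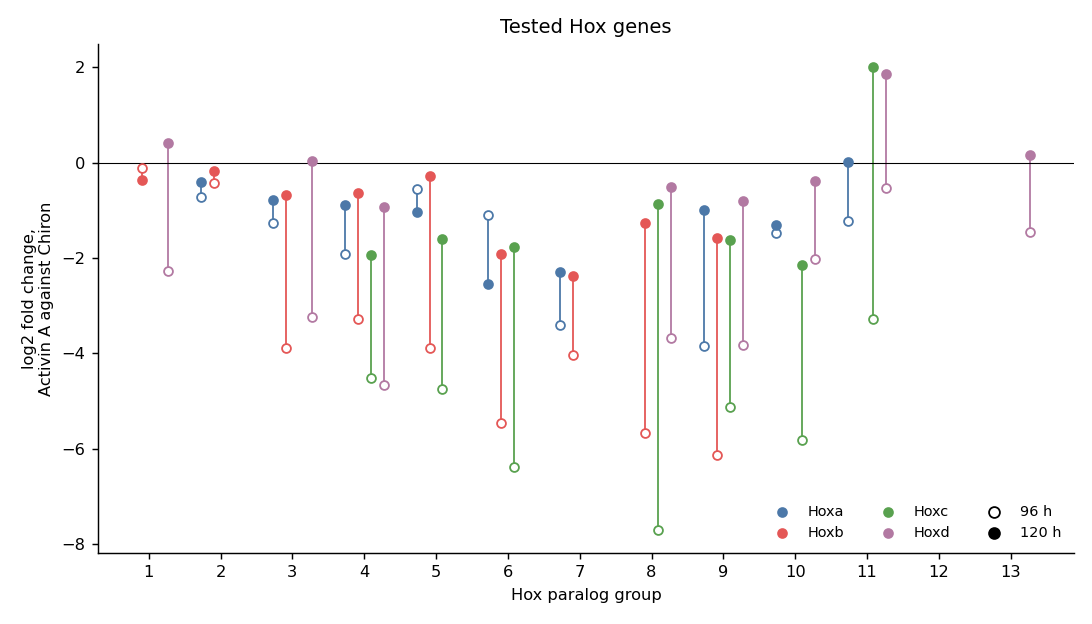
Log2 fold change of Activin A against Chiron for tested Hox genes by paralog group, with open circles for 96 h, filled circles for 120 h and 1 colour per cluster. Most vertical lines run upward from far below 0 at 96 h to nearer 0 at 120 h, the Hoxb1 line is short, and most fitted values in groups 10 to 13 rest on a group at the floor.

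Gaps of presomitic and somite genes shrank in 2 manners, and only the second is a delay as defined above. The second manner, a late rise, held for 7 of the 20 presomitic genes, and a Chiron fall without a called rise in Activin A held for 5. Among the presomitic genes, 16 had a positive interaction and 1 a negative one, with 11 gaps narrowed and a median interaction of 1.44. Among 21 tested somite genes, 12 were positive and 2 negative, with 11 late rises and a median of 1.47 that became 1.09 without Chiron 96 h replicate 1 and 1.78 without replicate 2. In the first manner Chiron fell toward Activin A levels that were already low. Tbx6, a T-box factor that specifies presomitic mesoderm, measured 423 and 386 CPM in Chiron at 96 h and 37.8 and 45.7 at 120 h, while Activin A libraries went from 42.8 and 38 to 17.5 and 16.3. Both arms fell, and the 10-fold gap became a 2.47-fold one (interaction 2.03, SE 0.138, adjusted p = 3.18e-11). Hes7, a core gene of the segmentation clock, Dll3, Snai1 and Cited1 were in the same class, with no rise called in Activin A.

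The second manner was a rise in the Activin A arm. Foxc2, a forkhead factor of paraxial mesoderm, stood at 116 and 69.2 CPM in Chiron and 0.54 and 0.472 with Activin A at 96 h. At 120 h it stood at 86.7 and 89.1 in Chiron and 97.2 and 90.4 with Activin A, so the groups no longer differed detectably (1.07-fold). Its interaction of 7.58 (SE 0.33, adjusted p = 8.42e-15) stayed between 7.16 and 7.90 without either Chiron 96 h library. Foxc1 closed in the same way, with an interaction of 4.15 (SE 0.164, adjusted p = 1.39e-15). Mesp2 and Ripply2, which set somite boundaries, also closed, at 9.3 and 11.4 against 7.78 and 8.79 CPM at 120 h for Mesp2 and 5.89 and 6.12 against 5.74 and 5.86 for Ripply2. Meox1, a marker of formed somites, rose in both arms, from 93.7 and 48.8 to 562 and 503 CPM in Chiron and from 5.31 and 6.1 to 264 and 276 with Activin A.

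Some later somite genes did not catch up. Pax1, which marks the sclerotome, was at 0.36 CPM or less in all 4 libraries at 96 h, and at 120 h reached 36.3 and 34.1 CPM in Chiron but 1.74 and 1.05 with Activin A, a 25.2-fold gap. Uncx, a gene of the posterior somite, was at 73.5 and 76.2 CPM in Chiron and 11.3 and 10.7 with Activin A at 120 h and was 3.32-fold apart at 96 h, where no library held more than 1.19 CPM. Pax7 widened its gap from 3.03-fold to 8.28-fold. Tbx18, a gene of the anterior somite, went the other way, with Activin A at 18 and 18.4 CPM at 120 h against 7.31 and 7.57 in Chiron.

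The Notch pathway, which drives the segmentation clock, moved with them: 15 of 22 genes had a positive and 3 a negative interaction, 9 were late rises, and the median was 1.12. The ligand Dll1 measured 947 and 810 CPM in Chiron and 46.8 and 44.6 with Activin A at 96 h, then 206 and 208 against 96.3 and 100 at 120 h. Both arms moved, Chiron down 4.24-fold and Activin A up 2.15-fold (interaction 3.19, SE 0.0923, adjusted p = 6.14e-18). The receptor Notch1, the glycosyltransferase Lfng, the feedback inhibitor Nrarp and the target Hes5 also narrowed. The ligand Jag1 went the other way, 2.35-fold higher with Activin A at 96 h and level at 120 h after a fall with Activin A and a rise in Chiron.

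Retinoic acid genes crossed over more than they closed. Retinoic acid is made by Aldh1a2 and broken down by Cyp26 enzymes, and it promotes somite and neural differentiation. Of 15 tested genes, 10 had a positive and 1 a negative interaction, 5 crossed, and the median treatment difference went from -1.31 at 96 h to 0.467 at 120 h. Aldh1a2 measured 433 and 318 CPM in Chiron against 54.8 and 56.6 with Activin A at 96 h, and 34.1 and 36.7 against 122 and 109 at 120 h. The groups were apart in opposite directions at the 2 times, 6.74-fold lower and then 3.27-fold higher with Activin A (interaction 4.46, SE 0.148, adjusted p = 6.23e-17). Crabp1, a cytoplasmic retinoic acid binding protein, moved the same way, from 373 and 302 against 25.5 and 23.7 CPM to 56.7 and 59.6 against 199 and 205. The receptor Rarb rose from 0.945 and 1.5 to 28.1 and 28.4 CPM with Activin A while Chiron stayed at 6.16 to 9.4, although 34.1% of its exon bases overlap Top2b on the other strand. The degrading enzyme Cyp26a1 was nearly level at 96 h and 4.64-fold higher with Activin A at 120 h, after a 4.3-fold fall in Chiron.

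Some genes of growth and developmental timing rose late. The imprinted pair H19 and Igf2, which share an enhancer region, were low with Activin A at 96 h. H19 measured 10.5 and 9.29 CPM there against 262 and 186 in Chiron, and 262 and 264 against 240 and 214 at 120 h (interaction 4.71, SE 0.158, adjusted p = 6.56e-17). Igf2 followed at 3.42 and 2.79 and then 70.5 and 57.3 CPM with Activin A, while Chiron held 93.8 and 78.8 and then 85.2 and 70.6. Imprinted genes did not move as 1 group: 9 of 21 had a positive and 7 a negative interaction, and Meg3, Peg3, Rian and Mest were negative. Hmga2, a chromatin protein repressed by let-7, rose from 104 and 100 to 631 and 592 CPM with Activin A against 617 and 524 and then 530 and 547 in Chiron, 5.6-fold lower and then 1.13-fold higher. Of 12 genes of the Lin28 and let-7 axis, 7 were positive and 1 negative, and Lin28a itself did not change its gap detectably (interaction -0.10, SE 0.075, adjusted p = 0.304).

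**Figure D3:**
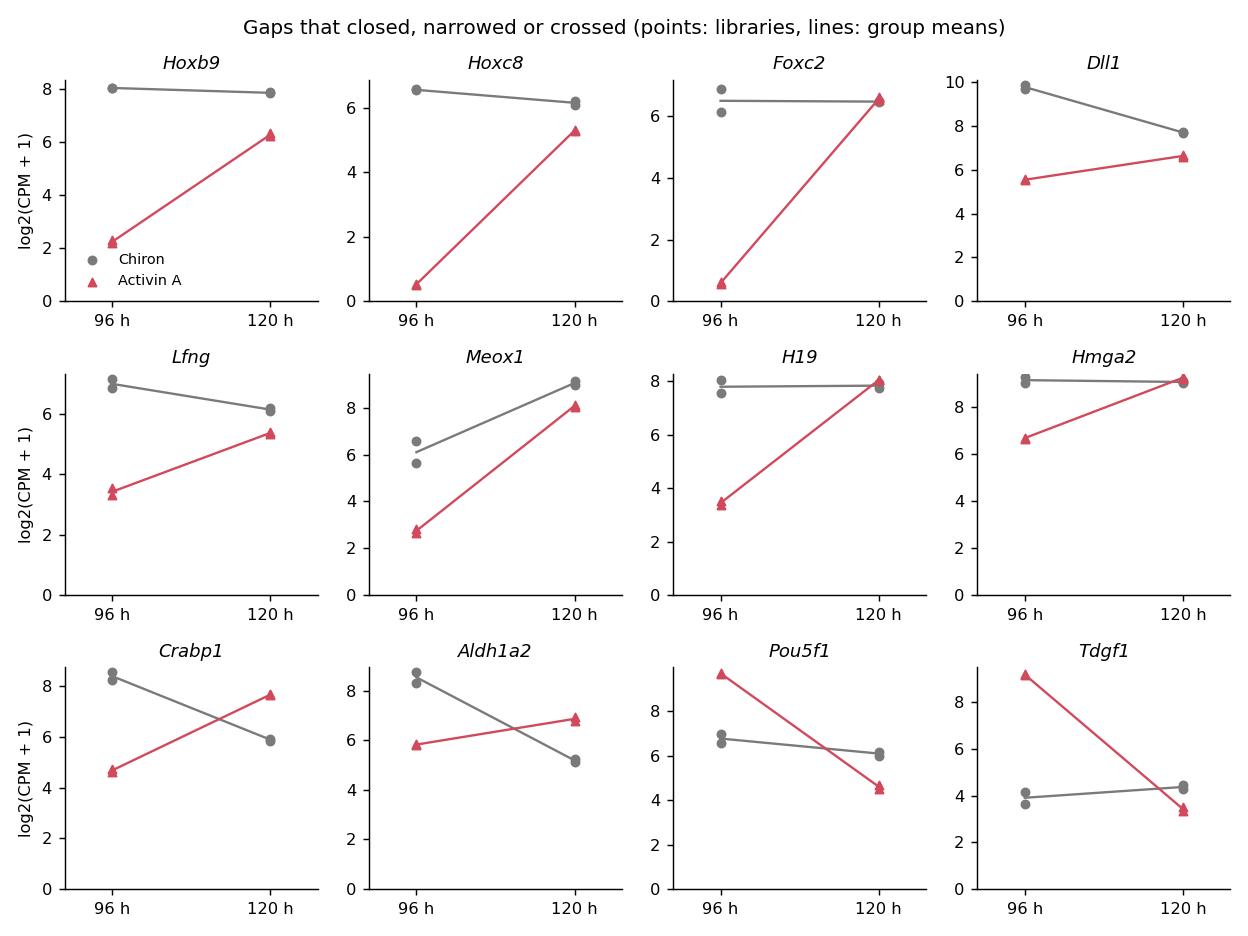
Levels as log2(CPM + 1) in the 8 libraries at 96 h and 120 h for 12 genes whose gap closed, narrowed or crossed, with grey circles for Chiron, red triangles for Activin A and lines through the means of the log values. Foxc2 and H19 meet at 120 h, Hmga2 crosses to a 1.13-fold difference, the Hoxb9 and Meox1 lines approach without meeting, and the Crabp1, Aldh1a2, Pou5f1 and Tdgf1 lines cross.

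Several pluripotency genes fell late with Activin A and ended below Chiron. Of 21 genes, 11 had a negative and 1 a positive interaction, with a median of -0.868. Pou5f1, the core pluripotency factor Oct4, measured 842 and 830 CPM with Activin A at 96 h against 93.7 and 125 in Chiron, and at 120 h 21.8 and 24.9 against 63.3 and 71.7. It was 7.64-fold higher and then 2.89-fold lower with Activin A (interaction -4.45, SE 0.143, adjusted p = 3.72e-17). Nanog and Utf1 crossed in the same direction. Tdgf1, the Nodal co-receptor Cripto, had the steepest course, from 574 and 585 CPM to 9.01 and 10.5 with Activin A against 11.4 and 17 and then 20.8 and 18.6 in Chiron (interaction -6.34, SE 0.186, adjusted p = 7.46e-18). The list was not uniformly high at 96 h. Only 6 of the 21 genes were higher with Activin A there and 12 were lower, among them Sox2, Esrrb, Tfcp2l1, Dppa2 and Dppa4. Dppa5a did not differ at 96 h and opened a 4.73-fold gap, at 30.1 and 32.2 CPM with Activin A and 148 and 147 in Chiron. Pim2, a kinase of the formative epiblast list, was 19.7-fold higher with Activin A at 96 h and level at 120 h, and Fgf5, the epiblast growth factor, narrowed from 128 and 139 CPM to 34.6 and 33.9 while Chiron stayed at 0.518 to 1.24.

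Germ cell genes were called less often, 4 of 13 tested members or 30.8% against 39.6% of all genes, a difference that was not tested. All 4 were negative, and 0 were positive by edgeR (0 at an unadjusted p under 0.05, 0 by DESeq2). Dnd1, an RNA-binding protein of primordial germ cells, fell from 50.3 and 47.8 to 3.07 and 3.24 CPM with Activin A, against 3.36 and 4.22 and then 2.08 and 3.63 in Chiron. Ddx4, a germ cell helicase, was at the floor with Activin A at 120 h, at least 6.85-fold below the 1.66 and 2.59 CPM of Chiron, and was not called at 96 h.

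Most streak genes fell in both arms, and their gaps took different courses. Of 15 mesendoderm genes, 14 were higher with Activin A at 96 h and 13 at 120 h, and the median difference was 2.8 and then 2.6. The interaction was negative for 6 and positive for 4, with a median of -0.583. The gap narrowed for 5 genes, was kept apart for 5 and widened for 3. T, or Brachyury, measured 538 and 588 CPM in Chiron and 1792 and 1717 with Activin A at 96 h, and 130 and 149 against 281 and 298 at 120 h (interaction -0.58, SE 0.0842, adjusted p = 6.26e-06). Eomes, a T-box factor upstream of endoderm, fell from 169 and 181 to 31 and 25.7 CPM with Activin A and stayed at 0.332 to 1.55 in Chiron. Its 115-fold and 48.9-fold gaps differed by an interaction of -1.18 that was not called (adjusted p = 0.0704, 95% interval -2.23 to -0.124). It was called under 5 alternatives: DESeq2 (adjusted p = 0.0417), limma on the authors' FPKM with either pseudocount (0.000237 and 0.0138), and edgeR without Chiron 120 h replicate 1 (-1.75, 0.038) or Activin A 120 h replicate 1 (-1.31, 0.0485). Without Chiron 120 h replicate 2 it was -0.45 (adjusted p = 0.721). Gsc, a homeobox gene of the organizer, was at 56.5 and 60.9 and then 22.5 and 18.1 CPM with Activin A, and at 0.332 to 1.5 in Chiron. Wnt3, the streak-inducing ligand, and the Activin antagonist Fst narrowed, Wnt3 from 40.9 and 41 to 2.25 and 3.03 CPM with Activin A.

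Definitive endoderm was kept apart or drew further apart. Of 22 genes, 17 were higher with Activin A at 96 h and all 22 at 120 h, the median difference went from 2.16 to 3.32 (2.13 and 2.98 with groups at the floor set to 3 counts), and 8 were kept apart while 6 widened. Sox17, the endoderm-defining SRY-box factor, measured 57.4 and 66.3 CPM with Activin A at 96 h and 54.4 and 54.6 at 120 h, against 1.24 and 1.8 and then 1.08 and 1.04 in Chiron. No Chiron library came near an Activin A library, and the interaction was 0.37 (95% interval -0.354 to 1.1). Foxa2, a pioneer factor of endoderm and notochord, stood at 76.7 and 87.2 and then 61.5 and 58.4 CPM against 1.6 and 1.76 and then 0.747 and 0.518 (interaction 0.93, adjusted p = 0.057). Gata6 and Gata4 were likewise kept apart. Among widened genes, Hhex, an anterior endoderm homeobox factor, went from 23.6 and 24.3 to 36.9 and 34.7 CPM with Activin A while Chiron fell from 6.25 and 7.44 to 2.33 and 1.35 (interaction 2.45, SE 0.231, adjusted p = 9.79e-09). Trh, the precursor of thyrotropin-releasing hormone, rose to 859 and 921 CPM with Activin A, and Spink1 to 37.8 and 39.6. Cxcr4 crossed, from 1.66-fold lower to 3.13-fold higher.

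Beside Foxa2 on chromosome 2 lies the noncoding gene 9030622O22Rik, on the same strand, which was singled out after its values were seen. It was at 0 counts in both Chiron libraries at 96 h and at 0.083 and 0.415 CPM at 120 h. With Activin A it measured 2.16 and 2.64 CPM at 96 h and 20.4 and 19.2 at 120 h, rising while Foxa2 fell. Their promoter windows in RefSeq (GRCm38.p6, 300 bases around the gene start, minus strand) are chr2:148040299-148040598 for 9030622O22Rik and chr2:148046920-148047219 for Foxa2. Both are shown because the neighbours were both at least 2-fold higher with Activin A at both times. The windows were searched on both strands for 5 motifs, and capitals mark any match. The FOXA motif was TGTTTAC. The FOXH1 motif was AATCCAC. The TCF/LEF motif was CTTTGAT. The GATA motif was AGATAA and the SMAD motif CAGAC, and no motif holds another.
9030622O22Rik: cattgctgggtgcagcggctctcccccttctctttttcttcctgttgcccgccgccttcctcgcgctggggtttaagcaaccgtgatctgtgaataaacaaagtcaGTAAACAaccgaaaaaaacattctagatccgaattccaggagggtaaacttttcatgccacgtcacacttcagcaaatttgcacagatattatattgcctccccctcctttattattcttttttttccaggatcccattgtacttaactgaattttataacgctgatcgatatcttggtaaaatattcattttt
Foxa2: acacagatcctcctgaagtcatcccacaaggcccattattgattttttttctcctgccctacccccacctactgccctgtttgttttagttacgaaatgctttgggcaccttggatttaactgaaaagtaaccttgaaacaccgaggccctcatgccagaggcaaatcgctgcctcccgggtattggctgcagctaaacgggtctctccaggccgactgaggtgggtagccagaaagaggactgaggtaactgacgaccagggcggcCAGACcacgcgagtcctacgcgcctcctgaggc
The first window, 1 of 26 listed for 9030622O22Rik of which 21 hold the FOXA letters, has 1 FOXA match. The second, 1 of 3 listed for Foxa2 of which 0 hold the FOXA letters, has 1 SMAD match. Among genes with a window, taking the 1 nearest the deposited gene's start, the FOXA letters occurred in 3.49% of 373 kept-apart genes higher with Activin A and in 2.42% of all 11741 genes, and the FOXH1 letters in 3.49% and 1.81%. In 430 late-rise genes the TCF/LEF letters occurred in 3.26% against 2.45% of all, and the SMAD letters in 48.1% against 47.8%. A match is a run of letters, not a bound site.

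Nodal and the antagonists Lefty1, Lefty2 and Cer1 were higher with Activin A at both times. Nodal was kept apart, at 118 CPM in both Activin A libraries at 96 h and 39.6 and 39.9 at 120 h, against 13.7 and 19.7 and then 5.65 and 7.67 in Chiron (95% interval of the interaction -0.615 to 0.219). Its secreted antagonists differed in course. Lefty1 and Lefty2 widened, while Cer1 was kept apart at 4.71-fold and then 4.8-fold (95% interval of the interaction -0.832 to 0.716) and Dand5, 1.43-fold higher and then 1.17-fold lower, had no interaction called. Lefty2 was level in Activin A, at 224 and 232 and then 231 and 226 CPM, and fell in Chiron from 27 and 38.8 to 10.8 and 10.9 (interaction 1.62, SE 0.16, adjusted p = 2.1e-08). Lefty1 fell in both arms, less with Activin A. Foxh1, the DNA-binding partner of the activated SMADs, widened as well. Over 22 tested pathway genes, 7 were positive and 5 negative, a share of 54.5% called against 39.6% of all genes. The median interaction of 0.0393 changed sign under 3 alternatives.

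Many genes of simple epithelium drew apart too, though not all. Of 20 tested simple-epithelium genes, 17 were higher with Activin A at 96 h and 18 at 120 h, 11 widened, 5 were kept apart and 2 narrowed. The interaction was positive for 11 and negative for 3, namely Cldn7, Rab25 and Grhl3. Cldn7, a tight-junction gene, went from 26.6-fold to 12.4-fold higher (interaction -1.06, SE 0.3, adjusted p = 0.00665). Krt18, a simple-epithelial keratin, rose from 46.2 and 52.9 to 148 and 153 CPM with Activin A and stayed between 4.7 and 5.98 in Chiron (interaction 1.53, SE 0.179, adjusted p = 2.82e-07). Its partner Krt8 and the tight-junction gene Cldn6 widened because Chiron fell while Activin A held. Cdh1, the E-cadherin gene, fell in both arms, from 413 and 437 to 147 and 154 CPM with Activin A and from 92.5 and 107 to 25.2 and 23.5 in Chiron. Genes of mesenchyme moved too, 12 of 20 with a positive and 3 with a negative interaction. The negative ones were Vim (-1.58), Cdh11 (-1.29) and Cdh2 (-0.623), and all 3 kept the call under every alternative. Fn1, fibronectin, crossed from 2.35-fold lower to 1.99-fold higher with Activin A.

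Most node and notochord genes were higher with Activin A than in Chiron at both times. Of 16 tested, 14 were higher at 96 h and 13 at 120 h, and 7 were kept apart while 4 narrowed. The interaction was negative for 6 and positive for 2, with a median of -0.128 that became -0.416 with floors applied. Their summed level fell from 2400 to 1080 CPM with Activin A and from 733 to 519 in Chiron. Noto, the notochord homeobox gene, was at 17.2 and 20 and then 14.7 and 12.9 CPM with Activin A and never above 0.367 in Chiron. Foxj1, a regulator of motile cilia, narrowed from 23.8 and 31.2 to 3.99 and 2.62 CPM. Shh, the Sonic hedgehog ligand made by notochord and gut, rose from 2.02 and 2.83 to 13.7 and 12.8 CPM with Activin A and was never above 0.249 in Chiron. Its interaction was not called (95% interval -0.892 to 4.46), which a Chiron level of a few counts leaves wide.

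Targets of hedgehog signalling widened their gap. Gli1, the transcription factor induced by the pathway, measured 7.85 and 7.59 CPM in Chiron and 28.9 and 31.6 with Activin A at 96 h, and 7.8 and 7.25 against 240 and 242 at 120 h. The 3.92-fold gap became 32-fold, with Chiron level and a rise with Activin A (interaction 3.02, SE 0.137, adjusted p = 2.05e-14). Ptch1, the hedgehog receptor and a target of the pathway, was nearly level at 96 h, at 65.9 and 59.8 against 78 and 83.4 CPM, and 8.17-fold apart at 120 h, at 50.3 and 47.1 against 404 and 392 (interaction 2.66, SE 0.0868, adjusted p = 4.62e-17). The antagonist Hhip, also induced by the pathway, widened. The transducer Smo and the repressor Gli3 had no interaction called. Over 17 tested pathway genes, 10 were positive and 3 negative. The median interaction was 1.17, and the list holds Foxc2 and Foxf1, which other lists hold too.

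Some genes of heart, lateral mesoderm and ventral neural tube were low in every 96 h library and higher with Activin A at 120 h. Among 22 tested cardiac genes, 16 had a positive interaction and 0 a negative one by edgeR (2 at an unadjusted p under 0.05, 0 by DESeq2), and among 20 of intermediate and lateral mesoderm 12 were positive and 2 negative. The 2 negative ones were Bmp4 (-0.72) and Msx1 (-0.665). Many members were scarce, and 8 of the cardiac and 7 of the lateral genes had a group at the floor. The lateral list as a sum was not low at 96 h and did not rise. It stood at 153 CPM in Chiron and 488 with Activin A at 96 h, and at 83.6 and 310 at 120 h. The lateral median of 3.3 became 2.57 with floors applied and -0.00221 where every library had to hold 10 counts, and the cardiac median of 2.12 became 0.42 under that filter. Isl1, a factor of second heart field and motor neurons, was already higher with Activin A at 96 h. It went from 9.95 and 8.22 to 30.2 and 26.5 CPM with Activin A while Chiron fell from 3.82 and 3.08 to 0.83 and 0.726 (interaction 3.75, SE 0.32, adjusted p = 1.78e-09). Foxf1, a hedgehog-responsive factor of gut mesoderm, rose from 0.54 and 0.669 to 14.8 and 13.6 CPM with Activin A. Osr1, of intermediate mesoderm, rose from 0.225 and 0.0393 to 12.8 and 13.1. The sarcomere genes Myl7, at 2.05 and 0.732 CPM, and Tnnt2, at 0.512 and 0.523, remained scarce with Activin A at 120 h. In the neural lists, Nkx6-1 rose from 0.135 and 0.787 to 13.7 and 16.1 CPM and Olig2 from 0 in both libraries to 9.83 and 9.31, both being ventral progenitor factors. Neural progenitor genes as a group split, with 8 of 23 positive and 7 negative, a share of 65.2% called against 39.6% of all genes. Zic1 was lower with Activin A at both times. Otx2, of forebrain and anterior epiblast, was kept apart at 95.8 and 115 and then 98.6 and 109 CPM with Activin A against 1.24 to 3.32 in Chiron (95% interval -1.36 to -0.0833), and 4 alternatives called its interaction, which was -1.35 without Chiron 96 h replicate 2 and -0.41 without replicate 1. Of 17 tested endothelial genes, 3 had a positive interaction and 1, Ets1, a negative one (-2.77). That share of 23.5% lies below the 39.6% of all genes, a difference that was not tested. Their median interaction of -0.402 changed sign under 3 alternatives. Among endothelial genes, the receptor Flt1 was kept apart and Kdr widened, but the defining genes Cdh5, Pecam1 and Tie1 stayed at 3.73 CPM or less in every library. Their part in the result was not tested.

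Caudal progenitor genes were divided. Of 18 tested genes, 9 had a negative and 7 a positive interaction, and 4 widened while 8 narrowed. Cdx2, a homeobox activator of trunk Hox genes, fell in both arms, from 381 and 451 to 214 and 227 CPM in Chiron and from 251 and 246 to 84.2 and 86.9 with Activin A (interaction -0.62, SE 0.0909, adjusted p = 7.78e-06). Wnt3a, the ligand of the tail bud, widened from 1.51-fold to 3.24-fold lower. Notum, a secreted Wnt inhibitor and Wnt target, fell from 27.2 and 29.2 to 3.79 and 4.6 CPM with Activin A against 65.8 and 72.6 and then 41.8 and 47.7 in Chiron (interaction -2.11, SE 0.17, adjusted p = 6.7e-10), and the Wnt target Axin2 widened slightly. These were the only 2 negative calls among 22 tested Wnt targets and antagonists. Of that list 13 were positive, and its median interaction was 1.01. Cdx4 narrowed, from 60.2-fold lower at 96 h to 24.2-fold lower at 120 h. Cdx1 was kept apart, at 213 and 187 and then 12.7 and 10.2 CPM against 391 and 449 and then 27.6 and 31.7.

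Mitosis genes changed little in size and mostly in 1 direction. Of 25 tested, 16 had a negative and 1 a positive interaction, with a median of -0.258 and none reaching 2-fold. DNA replication genes were mixed, with 5 positive and 9 negative of 26 and a median of -0.0943. That is 53.8% called, where all tested genes had 21.7% positive and 18% negative. The licensing factor Cdt1, at 0.49, was among the positive ones. Bub1, a spindle checkpoint kinase, stood at 193 and 188 against 195 and 204 CPM at 96 h and at 215 and 212 against 157 in both Activin A libraries at 120 h (interaction -0.51, SE 0.0687, adjusted p = 2.47e-06). Glycolysis and hypoxia genes had 5 positive and 6 negative of 26, a share of 42.3% called that lies near the 39.6% of all genes.

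**Figure D4:**
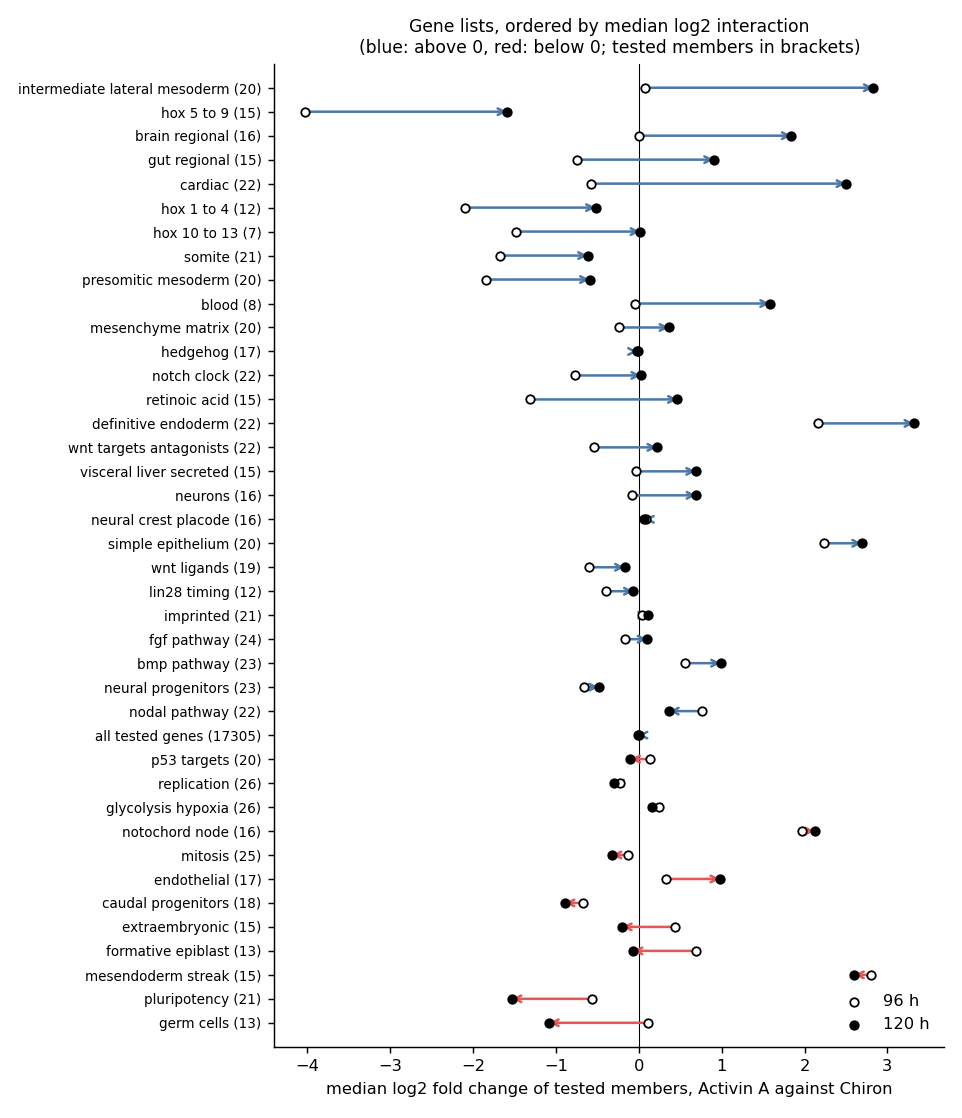
Median log2 fold change of Activin A against Chiron over the tested members of each gene list, at 96 h (open circles) and 120 h (filled circles), ordered by the median log2 interaction from the highest at the top. Hox, presomitic and somite lists move toward 0 from below, endoderm and epithelium move further above 0, cardiac and lateral lists rise above 0, and pluripotency and germ cell lists fall.

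**Figure D5:**
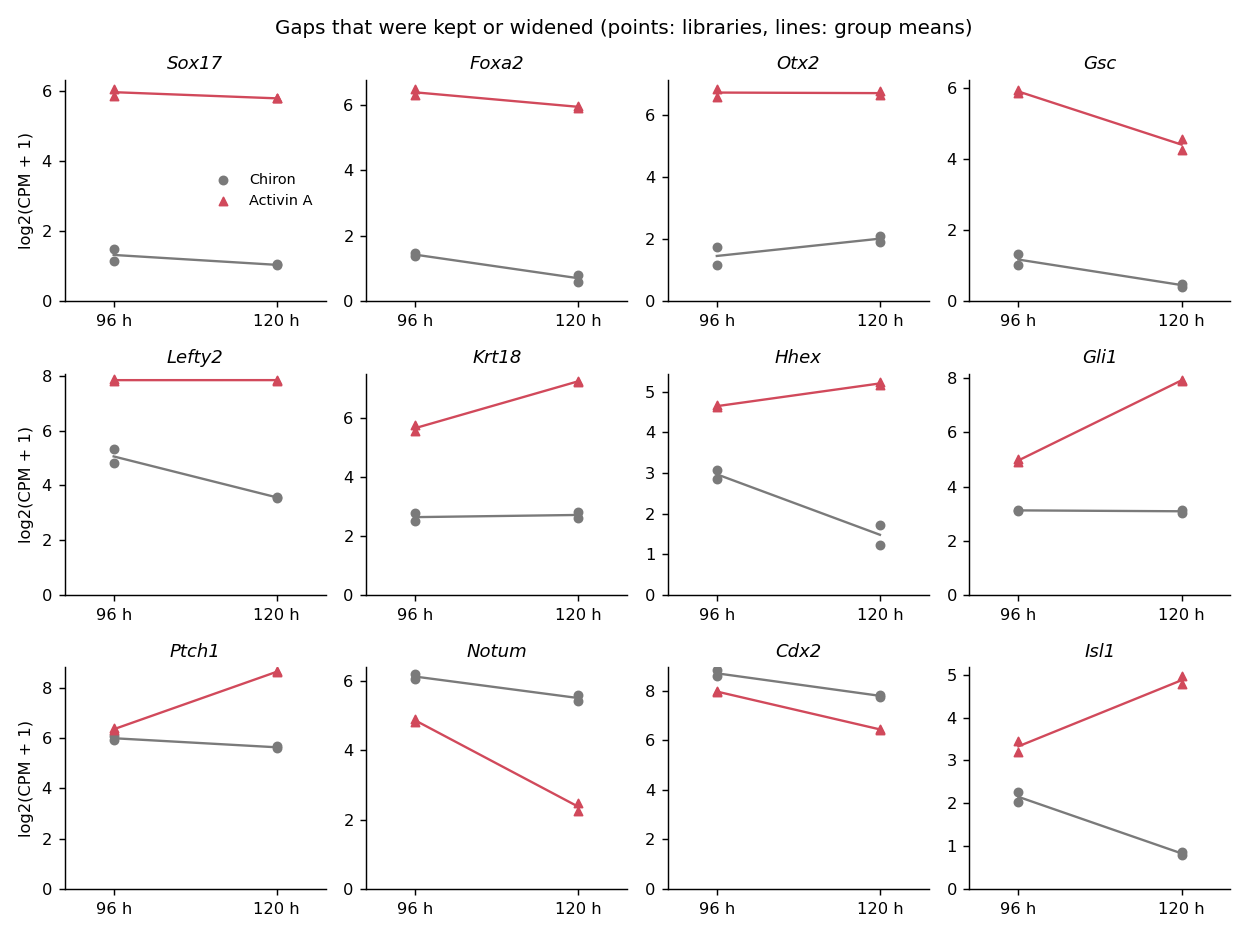
Levels as log2(CPM + 1) in the 8 libraries at 96 h and 120 h for 12 genes whose gap was kept or widened, with grey circles for Chiron, red triangles for Activin A and lines through the means of the log values. Sox17, Foxa2, Otx2 and Gsc stay apart, Gli1 and Krt18 climb in Activin A alone, Lefty2 and Hhex part mainly because Chiron falls, and Notum and Cdx2 part with Activin A below.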

How the data were processed

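RNA-seq had been made from poly(A) RNA of 8 wild-type gastruloid libraries, per the labels' protocols. The authors deposited counts and FPKM values (fragments per kilobase, scaled by depth) per gene for each library. The submitters' processing notes name cutadapt 1.16, STAR, Cufflinks 2.2.1 and the mm10 build. The strand setting and annotation of the counting are not given in the sources used here. Columns were matched to libraries by name, and 0 were left unmatched.

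The counts were fitted with edgeR 4.0.16 in R 4.3.3, by its quasi-likelihood test with 1 coefficient per group over all 8 libraries. Genes were kept by filterByExpr, which left 17305 of 55141. TMM scaling was used, and p-values were adjusted by Benjamini-Hochberg over all tested genes at a threshold of 0.05. Levels are CPM after TMM scaling, and an SE is the absolute log2 change over the square root of F. The kept-apart, late and Chiron classes required at least 2-fold. Total counts ran from 9108085 to 28819301, and 3 counts were taken as the floor. Intervals are 95% and cover counting and replicate error in these libraries only. The alternatives were other scalings, filters, DESeq2 1.42.0, limma 3.58.1 on log2(FPKM + 1) or log2(FPKM + 0.1), thinning, GC and length offsets, the replicate block and leaving out each library.

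The 39 gene lists and the members were chosen with earlier results of these data known. The naming rule took the 6 smallest interaction p-values in each direction among calls of at least 2-fold with a mean of 1 CPM or more in all groups, per list the 3 called members in each direction with the largest interaction and 5 CPM or more in a group and the 2 kept-apart members with the largest smaller difference, 3 genes per class, and every Hox gene. Other list members named in the text were chosen after their values were seen, for their known roles. On data simulated from these libraries over 16814 genes, the interaction test recovered 74% of 2-fold and 91% of 4-fold changes, and 7.82% of its 179 calls were false. Only 200 genes were changed there, none with low mean counts, and all groups were given the same spread. In the real libraries many more genes changed and the Chiron 96 h pair was wider, so these rates need not hold for them. Single genes that could not be included are not reported here, and the plot of Hox genes leaves 1 out.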

Additional observations from a re-analysis of the deposited data

Results flagged for a closer look

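These results stand out because the test of the interaction itself found that the treatment difference changed between 96 h and 120 h. With 2 libraries per group, no group could be searched for a library far from the others. The change was called for 6861 genes by edgeR's quasi-likelihood test. It was a reversal for 538 genes higher with Activin A at 96 h and for 630 genes lower, with no minimum size set at either time. Among the first, the log2 interaction was -6.34 for Tdgf1, -4.45 for Pou5f1 and -2.80 for Smim10l2a, which ended 2.02-fold, 2.89-fold and 1.67-fold below Chiron at 120 h. Among the second, it was 5.58 for Crabp1, 2.67 for Hmga2 and 4.46 for Aldh1a2. Crabp1 and Aldh1a2 ended 3.48-fold and 3.27-fold above Chiron, whereas Hmga2 ended only 1.13-fold above it.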

How the results depend on the processing

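The interaction count of 6861 lay between 4693 and 7170 over all alternatives. It was 5047 by DESeq2, 5151 and 4693 by limma on log2(FPKM + 1) and log2(FPKM + 0.1), and 5492 to 7170 with 1 library left out. Shared calls had the same sign, except for limma, where 4342 of 4353 and 4200 of 4206 did. The positive calls, 3752, became 2308 and 2231 in the 2 limma fits, and the genes called at 96 h, 10655, became 7040 and 6670. Where a count moved by over 1.5 times, the cause was not tested. By DESeq2, 536 gaps narrowed, 685 crossed and 289 widened. By limma on log2(FPKM + 1), 695 crossed, 264 widened, 138 were kept apart, 224 were late rises, 93 Chiron falls and 49 Chiron rises. By limma on log2(FPKM + 0.1), 495 narrowed, 701 crossed, 251 widened, 368 were kept apart, 370 were late rises and 93 Chiron falls. At an adjusted p under 0.01, 477 narrowed, 643 crossed and 263 widened. With at least 10 counts in every library, 215 were kept apart, 391 were late rises and 77 Chiron falls. Thinned to the smallest library, 326 widened. With 1.5-fold for the classes, 1109 were late rises, 898 late falls, 283 Chiron falls and 263 Chiron rises. With 1 library left out, 485 to 954 gaps narrowed, with 485 and 518 without Activin A 120 h replicates 1 and 2 and 514 without Chiron 120 h replicate 1. Likewise 340 to 525 widened, with 344 and 340 without Activin A 96 h replicates 1 and 2. Hoxa4 reversed from 1.02 to -3.04 and -6.2 in the limma fits on +1 and +0.1, and Hoxc10 from 3.67 to -1.63 and -0.54. Of 205 named genes with a call, 163 kept it under every alternative that tested them. With the replicate block, 6937 genes were called, 6819 of them shared. The differences between replicates correlated between groups by r of -0.0439 to 0.0902 over 10083 genes. That shows no strong shift common to same-numbered libraries, and cannot tell whether they came from 1 culture. Under other scalings, thinning or GC and length offsets, the median shift of a gene's interaction was at most 0.0245 in size. The median interaction of all genes, 0.0149, became -0.009 with RLE size factors and 0.0235 with upper-quartile scaling, the widest values. Depth limits genes below about 1 CPM at 120 h, where 3 counts are up to 0.314 CPM.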
